A study of Mus musculus with 6 samples.

Results

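The immediate early and activation-induced genes are a set of 42 genes, chosen by name. They include AP-1, Egr and Nr4a factors, dual phosphatases, mRNA decay genes and feedback genes. T cells switch on many of them, but not necessarily all, soon after receptor stimulation or stress. All 42 were among the 25239 genes listed in each count file, and 40 of them had enough reads to be tested. They were followed in RNA-seq of T cells sorted from the spleen as TCRβ+CD4+CD44-CD127+ cells of C57BL/6 mice. The mice were *Ikzf3* +/+ (called wild-type here), *Ikzf3* +/N159S (heterozygous, with 1 copy of the N159S allele) or *Ikzf3* N159S/N159S (homozygous, with both copies). Each genotype had 2 libraries. *Ikzf3* encodes Aiolos, a zinc finger transcription factor of the Ikaros family. The allele lies in the mouse gene itself, so every cell that uses *Ikzf3* carries it from the start of its development, and the age of the mice is not given in the sources used here. No culture or stimulation of the cells is named, and all 6 libraries were made from cells purified by flow cytometry, a gate meant to select naive cells.

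Immediate early genes are transcribed within minutes of a signal because the factors that act on them are already in the cell. In T cells, signals from the antigen receptor reach them through the MAP kinases and SRF, through calcium and NFAT, through CREB and through NF-kB. Many of the products then limit the same signals: dual-specificity phosphatases inactivate MAP kinases, Nfkbia and Tnfaip3 restrain NF-kB, and the Zfp36 proteins bring about the decay of mRNAs rich in AU elements. The same genes are also known to respond to the handling of cells during tissue dissociation.

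The libraries held between 11696461 and 17317260 reads counted on genes. All 10 T cell defining markers (*Cd3d*, *Cd3e*, *Cd3g*, *Cd247*, *Cd4*, *Lck*, *Tcf7*, *Lef1*, *Il7r* and *Ccr7*) were detected in every library, at a summed 6222 to 7357 CPM (reads scaled by library size). Of the lists for other cells, the 14 B cell markers summed to 176 and 262 CPM in wild-type, to 416 and 684 CPM in heterozygous and to 170 and 117 CPM in homozygous libraries. The 11 CD8 and NK cytotoxic markers summed to 71.3 and 77.0 CPM in wild-type libraries. Their sums were 64.4 and 60.0 CPM in heterozygous and 48.8 and 43.9 CPM in homozygous libraries. Of this list, *Cd8b1* and *Klrd1* were lower and *Gzma* was higher in homozygous against wild-type T cells by the test described below. The 14 myeloid markers summed to between 52.0 and 76.5 CPM and the 6 erythroid markers to at most 6.49 CPM. The globin genes *Hbb-bs*, *Hbb-bt*, *Hba-a1* and *Hba-a2* were at 0 in every library. The 8 regulatory T cell markers summed to 133 and 135 CPM in wild-type, to 225 and 197 CPM in heterozygous and to 154 and 149 CPM in homozygous libraries. The 15 effector and memory markers summed to between 386 and 488 CPM. The heterozygous libraries also differed in sex-linked transcripts, with *Xist* at 731 and 824 CPM against 0.773 to 1.98 CPM in the other 4 libraries, so for comparisons with heterozygous the sex-linked difference and the genotype cannot be told apart. In such bulk samples, fewer cells of a type and less RNA per cell cannot be told apart either.

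Promoters are shown for *Klf6*, *Btg2*, *Per1*, *Nr4a3* and *Dusp2*, the members that differed between homozygous and wild-type cells and have a RefSeq window, because the letters upstream of a start are what activation-dependent factors read. Each line gives the bases from 250 before the RefSeq start (GRCm38.p6, the build also called mm10) up to the start or the nearest annotated exon, 5′ to 3′ on the gene's own strand. Capitals mark TGACG (the core of the cAMP response element, or CRE), the full CRE TGACGTCA, the EGR motif GCGNGGGCG and the Ikaros-type motif TGGGAA, on either strand.
*Klf6* (chr13:5861239-5861481, plus strand): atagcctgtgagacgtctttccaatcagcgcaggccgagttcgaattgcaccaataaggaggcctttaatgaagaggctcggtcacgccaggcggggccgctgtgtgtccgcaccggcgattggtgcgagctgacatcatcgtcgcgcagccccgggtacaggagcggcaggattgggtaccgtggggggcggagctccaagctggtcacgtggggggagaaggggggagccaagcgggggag
*Btg2* (chr1:134079156-134079405, minus strand): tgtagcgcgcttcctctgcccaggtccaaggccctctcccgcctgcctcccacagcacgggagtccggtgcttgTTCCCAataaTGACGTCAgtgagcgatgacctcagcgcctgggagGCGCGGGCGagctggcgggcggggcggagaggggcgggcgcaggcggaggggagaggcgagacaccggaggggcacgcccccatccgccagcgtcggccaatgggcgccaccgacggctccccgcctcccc
*Per1*, upstream start (chr11:69098699-69098947, plus strand): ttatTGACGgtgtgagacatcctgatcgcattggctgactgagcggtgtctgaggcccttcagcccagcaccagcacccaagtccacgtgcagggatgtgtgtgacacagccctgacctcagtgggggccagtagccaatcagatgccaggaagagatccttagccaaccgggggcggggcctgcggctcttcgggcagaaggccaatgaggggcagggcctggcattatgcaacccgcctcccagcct
*Per1*, downstream start (chr11:69099902-69100151, plus strand): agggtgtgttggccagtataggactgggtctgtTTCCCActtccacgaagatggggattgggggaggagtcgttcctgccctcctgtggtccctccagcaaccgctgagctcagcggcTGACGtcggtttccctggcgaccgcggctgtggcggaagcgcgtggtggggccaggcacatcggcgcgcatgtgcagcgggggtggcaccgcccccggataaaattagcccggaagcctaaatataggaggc
*Nr4a3* (chr4:48045055-48045152, plus strand): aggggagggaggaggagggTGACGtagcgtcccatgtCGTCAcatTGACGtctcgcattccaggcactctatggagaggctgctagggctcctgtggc
*Dusp2* (chr2:127335909-127336158, plus strand): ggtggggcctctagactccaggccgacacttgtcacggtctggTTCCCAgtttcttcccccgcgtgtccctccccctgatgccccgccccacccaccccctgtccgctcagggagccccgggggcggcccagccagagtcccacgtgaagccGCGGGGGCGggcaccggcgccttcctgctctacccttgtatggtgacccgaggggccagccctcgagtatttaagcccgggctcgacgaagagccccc

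The *Btg2* promoter held an Ikaros-type motif from 176 to 171 bases before the start, a full CRE starting 166 bases before it and an EGR motif from 131 to 123 bases before it. The printed stretch of the *Nr4a3* promoter held the core TGACG at 3 places, which began 231, 213 and 205 bases before the start. In *Per1*, which has more than 1 start, the upstream window held the core 246 to 242 bases before its start. The downstream window held the core 132 to 128 bases before its start and an Ikaros-type motif from 217 to 212 bases before it. *Dusp2* held an Ikaros-type motif from 207 to 202 bases and an EGR motif from 98 to 90 bases before the start. None of these letter strings occurred in the printed *Klf6* stretch.

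A window of 250 bases before to 50 after the start was listed for 33 of the 42 members, and for 27025 genes in all. The CRE core TGACG, which every full CRE contains, was present in 19 members, or 57.6%, against 23.0% of all genes. The full CRE TGACGTCA was present in *Maff*, *Dusp1*, *Btg2* and *Ppp1r15a*, or 12.1% against 2.03%. The EGR motif GCGNGGGCG occurred in 11 members (33.3% against 6.27%), the SRF CArG box in *Egr2*, *Dusp5* and *Zfp36* (9.09% against 1.81%) and the degenerate NF-kB motif in 27 (81.8% against 53.5%). The AP-1 motif TGANTCA was found in 2 members, *Zfp36l1* and *Tnfaip3* (6.06% against 8.97%), and the Ikaros-type TGGGAA in 8 (24.2% against 28.3%). Both strands were searched, the shares were not tested, and a match is a string of letters rather than a bound site. *Fosl1*, *Zfp36l2*, *Myc*, *Ier2*, *Egr1*, *Egr3*, *Dusp4*, *Klf10* and *Cd69* had no window.

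**Figure D1:**
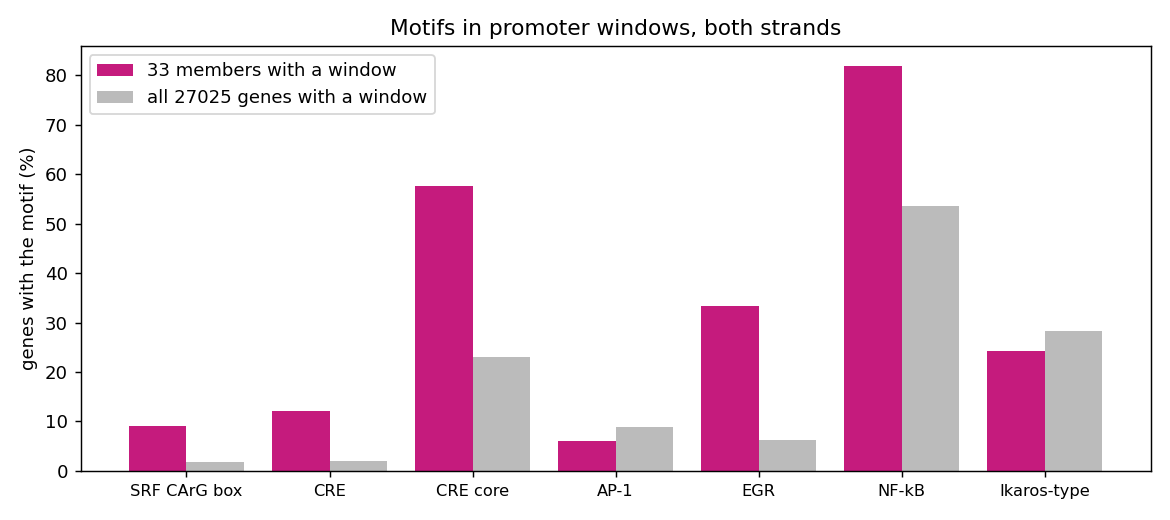
Share of genes (percent, vertical axis) whose promoter window holds each motif, for the 33 members with a window and for all 27025 genes with one. The CRE core TGACG stands at 57.6% of members against 23.0% of genes, whereas the Ikaros-type motif stands at 24.2% against 28.3%.

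RNA of many, but not all, members was abundant in these cells. The members took 2.06% ± 0.088 (SD, n = 2) of the scaled reads in wild-type, 1.79% ± 0.033 (n = 2) in heterozygous and 2.11% ± 0.009 (n = 2) in homozygous T cells. With 2 libraries a genotype the smallest two-sided p of an exact permutation test is 0.333, so no such p is given for these shares. The median tested member had a normalized read count of 4606, averaged over the 6 libraries, against 427 for all 12117 tested genes, and 18 members were among the 500 genes with most reads. A normalized read count is the count scaled to the mean library size of all 6 libraries by edgeR's TMM method.

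Per length, in RPKM (reads per kilobase of exon, scaled by library size), *Junb*, an AP-1 subunit, was the most abundant member and ranked 18 among the 11908 tested genes with a known length. Its level was 1339 ± 0.143 RPKM (SD, n = 2) in wild-type, 1260 ± 15.4 in heterozygous and 1174 ± 2.46 in homozygous T cells. *Fos*, its heterodimer partner, followed with 603 ± 2.36, 466 ± 33.4 and 589 ± 21.5 RPKM in the same order of genotypes. The next levels in wild-type T cells were those of *Zfp36l2*, an mRNA decay factor (552 ± 76.5 RPKM), *Jund* (386 ± 59.6 RPKM), *Ppp1r15a*, a phosphatase subunit of the stress response (361 ± 11.5 RPKM), *Jun* (351 ± 66.0 RPKM) and *Nfkbia*, the NF-kB inhibitor IκBα (322 ± 16.8 RPKM). *Jund*, *Ppp1r15a*, *Jun* and *Nfkbia* lay within 1 SD of a neighbour in this order. At the other end, *Nr4a2* (2.81 ± 0.648 RPKM), *Fosl2* (2.62 ± 0.0861 RPKM), *Dusp4* (1.52 ± 0.0695 RPKM) and *Ier3* (0.737 ± 0.0322 RPKM) were the lowest of the tested members. *Fosl1* (0 to 4 reads per library) and *Atf3* (1 to 10 reads) did not have enough reads for a test.

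**Figure D2:**
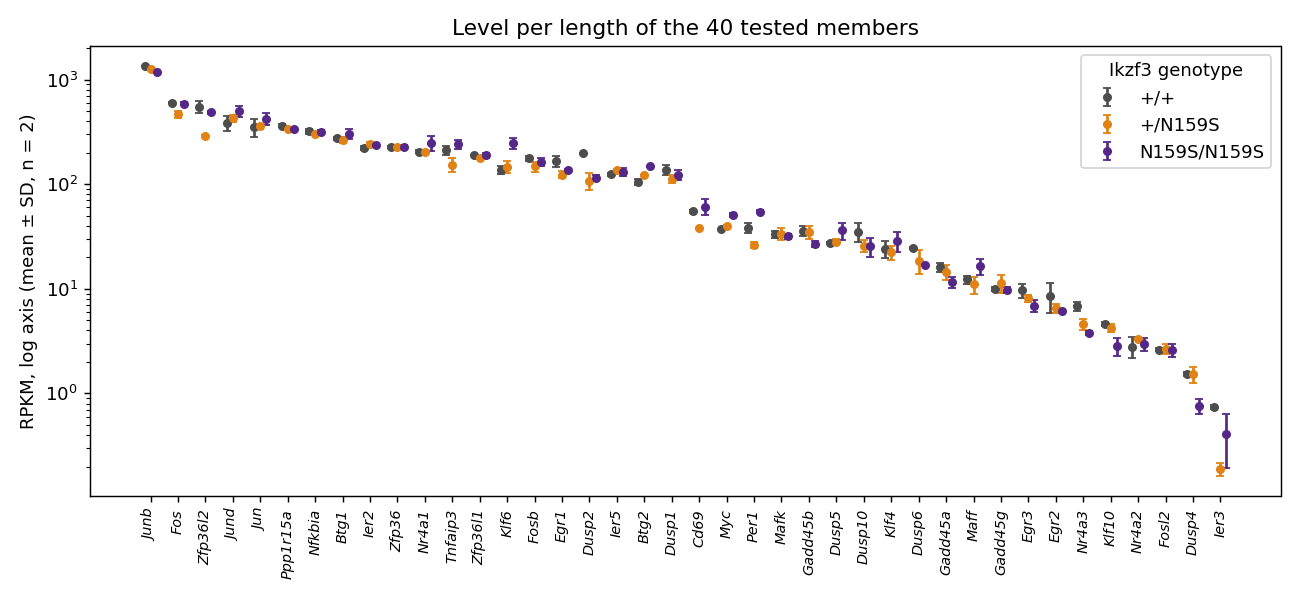
Levels of the 40 tested members in RPKM (log axis; mean ± SD of 2 libraries) by *Ikzf3* genotype, ordered by the mean over genotypes. *Junb* lies at the top near 1339 RPKM and *Ier3* at the bottom, below 1 RPKM.

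The first comparison asked which members differed with both copies of the mutant allele. In homozygous against wild-type T cells, 7 of 40 tested members were differentially expressed genes (DEGs), with an FDR under 0.05 in the quasi-likelihood test of edgeR after Benjamini-Hochberg adjustment over all 12117 tested genes, where 5.65% of all tested genes were. *Klf6*, *Per1*, *Btg2* and *Myc* rose, against 3.36% of all genes, and *Nr4a3*, *Dusp2* and *Klf10* fell, against 2.29% of all genes. The median log2 fold change of the 40 members was -0.02, with 16 positive and 24 negative, and over all tested genes it was 0.0002. Both homozygous libraries lay on the same side of both wild-type libraries for each of the 7 genes. Among the 614 tested genes at or above the members' median count, 4.72% were DEGs, and 2 of the 20 members in that range were (*Klf6* and *Btg2*). The other 5 DEGs, *Per1*, *Myc*, *Nr4a3*, *Dusp2* and *Klf10*, had mean counts below that median.

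*Klf6* (chr13:5861482-5870394), which encodes a Krüppel-like factor induced by many stimuli, had normalized read counts of 8439 and 9550 in wild-type, 8808 and 10517 in heterozygous and 14863 and 17565 in homozygous libraries. The wild-type and heterozygous values overlapped, and both homozygous values stood far above them. Its log2 fold change was 0.85 ± 0.12 (SE) in homozygous against wild-type T cells (FDR 0.00165) and it stayed past the threshold whichever library was left out. *Per1* (chr11:69095217-69109960), a circadian clock repressor that is also induced by cAMP and glucocorticoids, had counts of 2975 and 3463 in wild-type, 2322 and 2125 in heterozygous and 4708 and 4483 in homozygous libraries. No pair of genotypes overlapped, with heterozygous lowest and homozygous highest. The log2 fold change of *Per1* against wild-type was 0.51 ± 0.11 (FDR 0.0127), and it was not past the threshold without wild-type replicate 1 or homozygous replicate 1 (FDR up to 0.143).

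*Btg2* (chr1:134075170-134079120) encodes an antiproliferative protein that recruits the deadenylase complex to mRNAs. Its counts were 4100 and 4536 in wild-type, 5041 and 4920 in heterozygous and 6000 and 6164 in homozygous libraries, so that the 3 genotypes stood in the order of the number of mutant copies. The log2 fold change was 0.49 ± 0.10 (FDR 0.0102), and the call was lost without wild-type replicate 1 or either homozygous library (FDR up to 0.124). *Myc* (chr15:61985391-61990374), the transcription factor that drives growth after activation, showed the same order with 1521 and 1525, then 1645 and 1633, then 1996 and 2141. Its log2 fold change was 0.44 ± 0.09 (FDR 0.0160), and the call was lost without either wild-type library or without homozygous replicate 2 (FDR up to 0.114).

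Of the genes that fell, *Nr4a3* (chr4:48045153-48086447) encodes an orphan nuclear receptor that T cells induce on antigen receptor signalling through calcium and NFAT. It had normalized counts of 658 and 564 in wild-type, 375 and 449 in heterozygous and 328 and 348 in homozygous libraries. The wild-type libraries stood above the other 4, and homozygous values lay below those of heterozygous. The log2 fold change was -0.85 ± 0.14 in homozygous T cells (FDR 0.00290), past the threshold whichever library was left out, and -0.57 ± 0.13 in heterozygous T cells, just outside it (FDR 0.0555).

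*Dusp2* (chr2:127336159-127338376) encodes a nuclear phosphatase of ERK and other MAP kinases. Its counts were 5909 and 5972 in wild-type, 3638 and 2792 in heterozygous and 3610 and 3326 in homozygous libraries. The mutant genotypes overlapped each other and both lay far below wild-type. *Dusp2* fell by 0.78 ± 0.12 on the log2 scale in homozygous (FDR 0.00259) and by 0.89 ± 0.12 in heterozygous T cells (FDR 0.00376), and leaving out any library kept both calls. The difference between homozygous and heterozygous was 0.11 ± 0.12 (FDR 0.805). *Klf10* (chr15:38291463-38300706), a factor induced by TGF-β, had 296 and 282 counts in wild-type, 282 and 251 in heterozygous and 152 and 202 in homozygous libraries. The wild-type and heterozygous values touched, and the homozygous values lay below both. The log2 fold change of *Klf10* was -0.71 ± 0.17 (FDR 0.0275), and it was not past the threshold without either wild-type library or without homozygous replicate 1 (FDR up to 0.247).

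**Figure D3:**
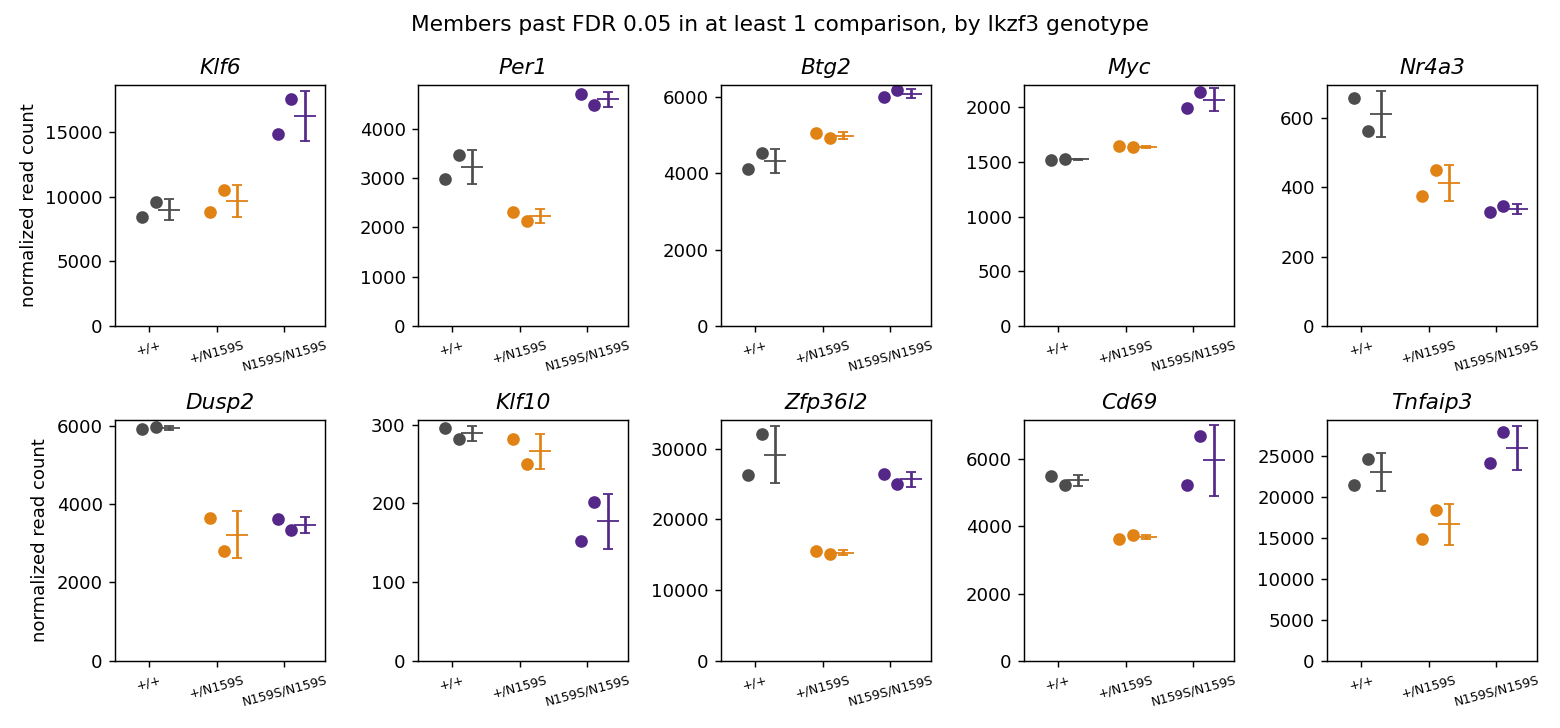
Normalized read counts (vertical axis, from 0) of the 10 members past FDR 0.05 in at least 1 comparison of genotypes. Dots are single libraries, and the dash with its bar is the mean ± SD of 2 libraries. *Dusp2* is low in both mutant genotypes, *Klf6* is high in homozygous alone, and *Zfp36l2*, *Cd69* and *Tnfaip3* are low in heterozygous alone.

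The AP-1 genes *Fos*, *Junb* and *Jun* were not among these DEGs. *Fos* had counts of 21174 and 21292 in wild-type, 15563 and 17226 in heterozygous and 21257 and 20184 in homozygous libraries. *Junb* had 46125 and 46118, then 43760 and 43009, then 40485 and 40366, and *Jun* had 14526 and 18983, then 17618 and 16495, then 22020 and 18247. For *Fos* both heterozygous libraries lay below the other 4, for *Junb* the values were lower with each mutant copy, and for *Jun* the genotypes overlapped. The log2 fold changes in homozygous against wild-type T cells were -0.04 ± 0.10 for *Fos*, -0.19 ± 0.10 for *Junb* and 0.26 ± 0.14 for *Jun* (FDR 0.911, 0.342 and 0.345).

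Of the AP-1 and bZIP group, 0 of 8 tested members were called in any comparison by this test. Of all tested genes, 5.65% were called in homozygous and 1.78% in heterozygous against wild-type T cells. Between the mutant genotypes 1.49% were, and 0.941% against the midpoint described below. The lowest p of the group in homozygous against wild-type was that of *Jund*, an AP-1 subunit. *Jund* had 8580 and 10685 counts in wild-type, 11193 and 10078 in heterozygous and 13644 and 11420 in homozygous libraries, with a log2 fold change of 0.38 ± 0.13 (FDR 0.124). The homozygous libraries lay above all others. In the group of Egr and Nr4a factors, *Egr1* had 12060 and 10114, then 8712 and 7846, then 9279 and 9013 counts, with log2 fold changes of -0.28 ± 0.11 in homozygous (FDR 0.203) and -0.42 ± 0.11 in heterozygous (FDR 0.0790). *Egr2* and *Egr3* also had negative values in both mutant genotypes, from -0.25 to -0.49, and *Egr3* had an FDR of 0.0671 in homozygous. *Nr4a1*, which encodes Nur77, had 10577 and 11001, then 10553 and 11028, then 11450 and 14428 counts, with a log2 fold change of 0.26 ± 0.12 in homozygous T cells (FDR 0.257). *Nr4a1* and *Nr4a3*, members of 1 family, therefore had values of opposite sign, and only that of *Nr4a3* passed the test; the difference between the genes was not tested.

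Among the 6 dual phosphatases, 5 had a negative log2 fold change in homozygous against wild-type T cells. Of the 6, 1, *Dusp2*, passed the test, where 5.65% of all tested genes did. *Dusp4*, which had 27 to 70 counts per library, stood at -0.99 ± 0.31 (FDR 0.0960), *Dusp6*, the cytoplasmic ERK phosphatase, at -0.53 ± 0.15 (FDR 0.0598) and *Dusp10*, which acts on p38 and JNK, at -0.47 ± 0.17 (FDR 0.154). *Dusp1* had 6311 and 7291 counts in wild-type, 5927 and 5218 in heterozygous and 6558 and 5594 in homozygous libraries, with a log2 fold change of -0.16 ± 0.12 (FDR 0.528). *Dusp5*, a nuclear ERK phosphatase, had the one positive value, 0.39 ± 0.12 (FDR 0.106). The median of the 6 was -0.50, beside 0.0002 for all tested genes.

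In the mRNA decay and antiproliferative group, *Zfp36* and *Zfp36l1*, which encode tristetraprolin and its relative, had log2 fold changes of -0.0048 and -0.0047 in homozygous against wild-type. *Btg1*, a relative of *Btg2*, had 21128 and 22136 counts in wild-type, 19930 and 21770 in heterozygous and 22030 and 25752 in homozygous libraries, which overlapped between wild-type and homozygous. Its log2 fold change in homozygous T cells was 0.14 ± 0.11 (FDR 0.560). Of the inhibitors of NF-kB, *Nfkbia* had 8053 and 7482, then 7207 and 7294, then 7850 and 7470 counts, a log2 fold change of -0.02 ± 0.10 (FDR 0.953). *Tnfaip3*, which encodes the ubiquitin-editing enzyme A20, stood at 0.17 ± 0.13 (FDR 0.538).

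The 4 stress feedback members all had negative values in homozygous against wild-type T cells. Of the 4, 0 passed the test, where 5.65% of all tested genes did. The lowest p was that of *Gadd45b*, an activator of p38 signalling, with 788 and 930 counts in wild-type, 919 and 743 in heterozygous and 667 and 613 in homozygous libraries and a log2 fold change of -0.42 ± 0.13 (FDR 0.0859). *Gadd45a* stood at -0.48 ± 0.15 (FDR 0.102), *Gadd45g* at -0.02 and *Ppp1r15a* at -0.09. Of the Ier genes, *Ier2* and *Ier5* stood at 0.09 each, and *Ier3*, with 3 to 12 reads per library, at -0.79 ± 0.66 (FDR 0.594). The remaining members (*Fosb*, *Fosl2*, *Maff*, *Mafk*, *Nr4a2* and *Klf4*) lay between -0.13 and 0.41. In all, 22 of the 40 tested members were within 1.25-fold between homozygous and wild-type T cells. The share of all tested genes within that range was not computed. The median absolute log2 fold change was 0.26 over the 40 members and 0.17 over all tested genes.

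**Figure D4:**
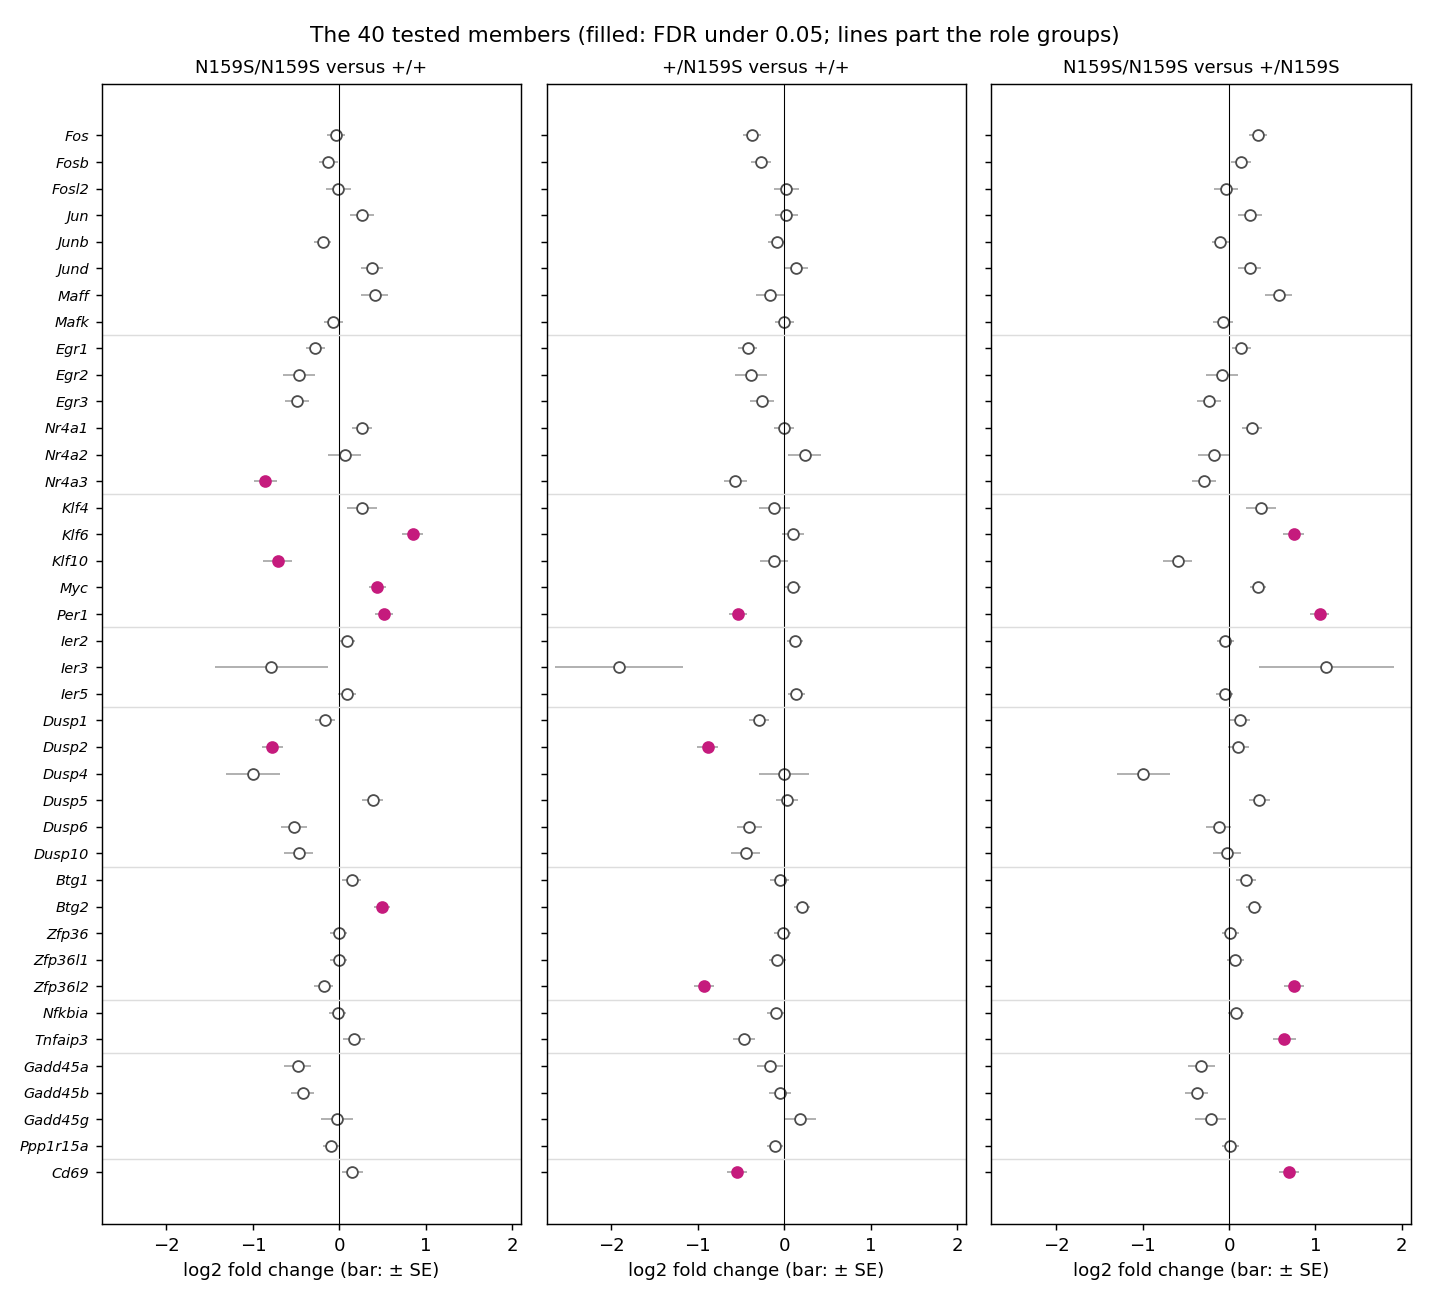
Log2 fold changes (horizontal axis, bars ± SE) of the 40 tested members in the 3 comparisons of genotypes, with filled points for FDR under 0.05 and grey lines between role groups. In the comparison of homozygous with wild-type filled points lie on both sides of 0, whereas those of heterozygous against wild-type are all to the left and those of homozygous against heterozygous all to the right.

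The second comparison concerned 1 copy of the allele. In heterozygous against wild-type T cells, 4 of 40 tested members were DEGs by the same test, against 1.78% of all tested genes. All 4, *Zfp36l2*, *Dusp2*, *Cd69* and *Per1*, fell, where 0.586% of all tested genes did. Among the 614 genes at or above the members' median count 1.79% were DEGs in either direction, and 2 of the 20 members there were. The median log2 fold change of the members was -0.10, with 27 of 40 negative, beside 0.01 for all tested genes.

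*Zfp36l2* (chr17:84183931-84187947), an mRNA decay factor that restrains proliferation of lymphocytes, had the lowest FDR of the members. It had normalized counts of 26314 and 32034 in wild-type, 15530 and 15118 in heterozygous and 26477 and 24967 in homozygous libraries. The heterozygous libraries lay far below the other 4, and wild-type and homozygous overlapped. *Zfp36l2* fell by 0.93 ± 0.11 on the log2 scale in heterozygous T cells (FDR 0.00175), a call that leaving out any library did not change, and it stood at -0.18 ± 0.11 in homozygous T cells (FDR 0.448). An antisense gene, *AC132455.1*, overlaps its exons, and reads of the pair cannot be told apart where counting ignores strand.

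*Cd69* (chr6:129267325-129275436) encodes the early activation antigen that retains T cells in lymphoid organs. Its counts were 5492 and 5245 in wild-type, 3633 and 3733 in heterozygous and 5224 and 6700 in homozygous libraries. The heterozygous libraries were again below the other 4, which overlapped. *Cd69* fell by 0.54 ± 0.12 on the log2 scale in heterozygous T cells (FDR 0.0375), and was not past the threshold without any one of the 4 wild-type and heterozygous libraries (FDR up to 0.164). It stood at 0.15 ± 0.12 in homozygous T cells (FDR 0.565), and at -0.03 without homozygous replicate 2. *Per1* fell by 0.53 ± 0.11 in heterozygous T cells (FDR 0.0255), a call lost without wild-type replicate 2 or heterozygous replicate 2 (FDR up to 0.227).

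Between the mutant genotypes, 5 of 40 tested members were DEGs in homozygous against heterozygous T cells, against 1.49% of all tested genes. All 5 were higher in homozygous T cells, where 0.602% of all genes were higher. These 3 comparisons share libraries, so their values are given side by side and not as separate evidence. *Per1* differed by 1.05 ± 0.11 on the log2 scale (FDR 0.000385) and *Zfp36l2* by 0.75 ± 0.11 (FDR 0.00759), both past the threshold whichever library was left out. *Klf6* differed by 0.75 ± 0.12 (FDR 0.0109) and *Cd69* by 0.69 ± 0.12 (FDR 0.0124), and both calls were lost without homozygous replicate 2 (FDR 0.0890 and 0.104). *Tnfaip3* (chr10:19000910-19015657) had counts of 21407 and 24635 in wild-type, 14899 and 18408 in heterozygous and 24070 and 27878 in homozygous libraries, so that heterozygous lay below the other 4 libraries, which overlapped. Its difference between homozygous and heterozygous was 0.64 ± 0.13 (FDR 0.0289), and it was not past the threshold without heterozygous replicate 1 or homozygous replicate 2 (FDR up to 0.202).

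Whether the heterozygous level lay midway between the other genotypes was tested in the same model, on the log2 scale. Of the 40 members, 4 departed from the midpoint, against 0.941% of all tested genes, and all 4 lay below it, where 0.215% of all genes did. *Zfp36l2* lay 0.84 below (-0.84 ± 0.10, FDR 0.00245) and *Per1* 0.79 below (-0.79 ± 0.09, FDR 0.00205), with or without any single library. *Cd69* stood at -0.62 ± 0.10 (FDR 0.0170), lost without either heterozygous library (FDR up to 0.0766), and *Tnfaip3* at -0.55 ± 0.11 (FDR 0.0444), lost without wild-type replicate 2, heterozygous replicate 1 or homozygous replicate 2 (FDR up to 0.234). *Dusp2* was just outside the threshold at -0.50 ± 0.11 (FDR 0.0537), with levels that overlapped between the mutant genotypes. *Klf6* stood at -0.32 ± 0.11 (FDR 0.272), and *Btg2*, *Myc* and *Nr4a3* at -0.04 to -0.14 (FDR 0.639 to 0.901). Of the 40 members 29 had a negative departure, with a median of -0.12 beside 0.01 for all tested genes.

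**Figure D5:**
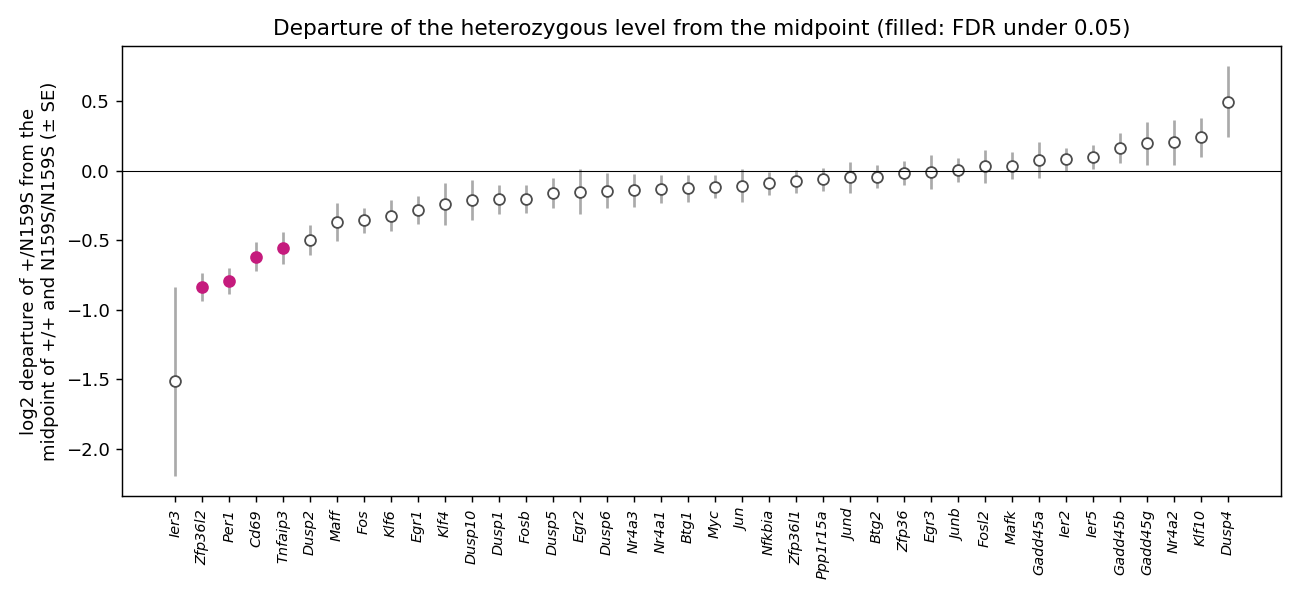
Departure of the heterozygous level from the midpoint of wild-type and homozygous on the log2 scale (vertical axis, ± SE) for the 40 tested members, ordered by value, with filled points for FDR under 0.05. The 4 filled points, *Zfp36l2*, *Per1*, *Cd69* and *Tnfaip3*, all lie below 0.

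The heat shock and dissociation stress list had its lowest sums in heterozygous libraries. Its 18 genes summed to 9785 and 14219 CPM in wild-type, 8410 and 7662 CPM in heterozygous and 11454 and 9817 CPM in homozygous libraries. Of 17 tested genes, 0 were called in homozygous against wild-type T cells, where 5.65% of all tested genes were. In heterozygous against wild-type T cells 2 were called lower, where 0.586% of all tested genes were. Named after their values were seen, they were the chaperones *Hsp90aa1* (-0.85 ± 0.16, FDR 0.0211) and *Dnaja1* (-0.76 ± 0.15, FDR 0.0318). The median over the list was -0.58 in heterozygous against wild-type T cells and -0.05 in homozygous against wild-type T cells. The part of these genes, of the sex-linked difference and of the higher B cell marker sum in heterozygous libraries in the lower levels of *Zfp36l2*, *Cd69*, *Per1* and *Tnfaip3* was not tested.

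The pathways upstream of the set were described by lists of other genes. Of 35 tested genes of the MAP kinase and SRF route, 0 were called in homozygous against wild-type T cells. Over all tested genes 5.65% were, and the median log2 fold change of the list was -0.05. In heterozygous against wild-type 1 was, beside 1.78% of all tested genes. It was *Mef2c* (1.43 ± 0.29, FDR 0.0300), a factor that B cells also express and that was named after its value was seen. Of 14 genes of the calcium and NFAT route, 3 were lower and 1 was higher in homozygous T cells. Over all tested genes, 2.29% were lower and 3.36% higher. *Ppp3ca* (-0.47 ± 0.12, FDR 0.0373) and *Ppp3cc* (-0.45 ± 0.10, FDR 0.0239), catalytic subunits of calcineurin, and *Nfatc2* (-0.36 ± 0.09, FDR 0.0459), a factor that calcineurin activates, fell. *Orai1*, the pore of the calcium release-activated channel, rose (0.47 ± 0.11, FDR 0.0306). *Nfatc2* was also lower in heterozygous T cells (-0.47 ± 0.09, FDR 0.0261).

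Of 17 tested genes of the NF-kB pathway, 4 rose and 0 fell in homozygous against wild-type T cells. Over all tested genes, 3.36% rose and 2.29% fell. *Tnip2*, a partner of A20, had 375 and 392 counts in wild-type, 424 and 422 in heterozygous and 625 and 685 in homozygous libraries, a log2 fold change of 0.77 ± 0.12 (FDR 0.00221). *Nfkb2* (0.49 ± 0.10, FDR 0.0156) and *Relb* (0.46 ± 0.12, FDR 0.0494) encode the subunits of the non-canonical pathway, and *Nfkbie* (0.50 ± 0.13, FDR 0.0433) an inhibitor. In heterozygous against wild-type T cells 0 of the 17 were called by this test, beside 1.78% of all tested genes. *Nfkb2* stood at 0.32 ± 0.10 there (FDR 0.148). Of 24 tested genes among other feedback inhibitors, 1 rose in homozygous T cells, beside 3.36% of all tested genes. It was *Socs3*, an inhibitor of cytokine receptor signalling (0.79 ± 0.13, FDR 0.00360). *Socs3* had 1532 and 1691 counts in wild-type, 1943 and 2425 in heterozygous and 2530 and 3061 in homozygous libraries.

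Of 15 tested genes that T cells induce later in activation, 4 fell and 1 rose in homozygous against wild-type T cells. Over all tested genes, 2.29% fell and 3.36% rose. *Irf4*, whose product scales with the strength of receptor signals, had 248 and 306 counts in wild-type, 128 and 181 in heterozygous and 52.3 and 50.4 in homozygous libraries, a log2 fold change of -2.43 ± 0.22 (FDR 5.80e-05). *Tnf*, a cytokine gene, had 492 and 450, then 347 and 354, then 170 and 171 counts, a log2 fold change of -1.47 ± 0.14 (FDR 5.80e-05). Both genes stood in the order of the number of mutant copies without overlap. *Icos*, a costimulatory receptor, stood at -0.71 ± 0.11 (FDR 0.00188) and *Il2ra*, the α chain of the IL-2 receptor and also a regulatory T cell marker, at -0.89 ± 0.23 (FDR 0.0409). *Bhlhe40*, a transcription factor named after its value was seen, was the gene that rose (1.19 ± 0.30, FDR 0.0420). *Irf4* is also expressed by B cells, whose marker sum was 170 and 117 CPM in homozygous and 176 and 262 CPM in wild-type libraries. Of the 14 B cell markers, 5 were lower and 0 higher in homozygous against wild-type T cells, with a median log2 fold change of -0.94. The part of B cells in the values of *Irf4* was not tested.

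Within genotypes, log2 ratios of the 2 libraries were about as large for the members as for all tested genes. The median normalized count was 4606 for the members against 427 for all tested genes. Ratios of genes as abundant as the members were not compared. The median absolute log2 ratio of the libraries was 0.11 over the members and 0.16 over all tested genes in wild-type, 0.15 and 0.17 in heterozygous, and 0.18 and 0.16 in homozygous T cells. The largest ratios among members were those of *Egr2* in wild-type (0.65), *Dusp6* in heterozygous (0.53) and *Ier3* in homozygous (0.86). Exons of *Jun*, *Junb*, *Jund*, *Mafk*, *Dusp1*, *Dusp5*, *Zfp36*, *Zfp36l1*, *Gadd45a*, *Ppp1r15a* and *Fosl1* also overlap a gene on the opposite strand, so their counts may include its reads.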

How the data were processed

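T cells sorted as TCRβ+CD4+CD44-CD127+ from spleen gave 6 RNA-seq libraries, 2 for each *Ikzf3* genotype given by the labels. The authors trimmed reads with Trimmomatic 0.38.1, mapped them to mm10 with HISAT2 2.2.1, counted them on refGene genes with HTSeq 2.0.2, and deposited raw read counts per gene. The strand setting of the counting is not given in the sources used here. Entries counted on no gene, ambiguous, not aligned or not unique were left out of library sizes, and 50.7 to 57.7% of entries were on genes. The B cell part of the study was not used here.

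The package edgeR 4.0.16 in R 4.3.3 was used. Its filterByExpr function, given the genotypes, required a count of 10 and a total of 15 reads. Libraries were scaled by TMM and fitted by glmQLFit with robust moderation and 1 coefficient per genotype, with quasi-likelihood F tests and Benjamini-Hochberg adjustment over 12117 genes. An FDR under 0.05 was called. RPKM used exon lengths of the GENCODE annotation of GRCm38, whereas the counts rest on refGene. The fits were also run on simulated counts with planted changes. In homozygous against wild-type these were larger than the changes of the called members. That run therefore does not show how well changes of the reported size are recovered. The study's methods give the number of samples per genotype as mice, whereas the labels do not tie a library to a mouse. If libraries shared a mouse, p-values would measure technical spread. The depth of 11696461 to 17317260 reads leaves members with few reads, such as *Ier3*, imprecise.

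The members and lists were chosen with earlier results of these data known. Every member is accounted for. Members called in a comparison of genotypes, or of lowest p in their role group, are given in full, together with *Fos*, *Jun*, *Junb*, *Egr1*, *Nr4a1*, *Cd69*, *Dusp1*, *Nfkbia*, *Btg1* and *Zfp36l2* whatever they showed. Of other lists, the rule named at most 4 genes called in homozygous against wild-type cells, and genes named beyond it are marked as named after their values were seen. Deviations from genotype means of the first replicates were correlated at -0.17 between +/+ and +/N159S and at -0.22 between +/+ and N159S/N159S. Between the mutant genotypes the correlation was 0.24. The signs differed, so the numbers were not taken to pair the libraries. By these signs +/+ replicate 1 went with replicate 2 of both mutant genotypes, the same grouping as the split by genes detected. Alternatives were DESeq2 1.42.0, its size factors, other count filters, a replicate block, the likelihood ratio test, an FDR of 0.01, fits of 2 genotypes, and each library left out. A term for the split of libraries by genes detected and moderation without the robust option were chosen after seeing the data.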

Additional observations from a re-analysis of the deposited data

How the results depend on the processing

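The number of members called was 7 in *Ikzf3* N159S/N159S against +/+, 4 in +/N159S against +/+, 5 between the mutant genotypes and 4 against the midpoint. In the same order, counts that moved by over 1.5 times were 15, 10 and 8 without a filter on low counts, 11, 8 and 8 with the likelihood ratio test, 3, 2, 2 and 2 at an FDR under 0.01, and 21, 12, 14 and 11 with a term for the split of libraries by genes detected, where 15.1, 12.1, 7.04 and 5.96% of all tested genes were called. For the first 2 comparisons the main test called 5.65 and 1.78% of all tested genes. These shares were 4.62 and 2.99% without a filter and 8.60 and 5.28% with the likelihood ratio test. At an FDR under 0.01 they were 2.38 and 0.421%. DESeq2 called 8 members in +/N159S against +/+, all lower, adding *Egr1*, *Fos*, *Nr4a3* and *Tnfaip3*, where it called 2.81% of all tested genes. The cause was not tested, other than the stricter threshold. With each library left out, between 3 and 9, 2 and 4, 2 and 5, and 3 and 4 members were called. The lowest counts came without +/+ replicate 1 (3, *Dusp2*, *Klf6* and *Nr4a3*), +/+ replicate 2 (2, *Dusp2* and *Zfp36l2*) and N159S/N159S replicate 2 (2, *Per1* and *Zfp36l2*). With a replicate block 7, 3, 5 and 4 members were called, where 4.45 and 1.39% of all tested genes were in the first 2 comparisons. The labels do not say whether the numbers pair the libraries, and they were not taken to do so. The split by genes detected set +/+ replicate 1, +/N159S replicate 2 and N159S/N159S replicate 2 (16873, 18147 and 17571 genes) apart. The other library of each genotype had 15888, 15079 and 14803 genes, in the same order. Of 395 single-gene alternatives, 348 kept direction and side of the threshold, 40 lost the call, 6 gained one and 1 reversed, the uncalled *Cd69* in N159S/N159S against +/+ (-0.0288 without N159S/N159S replicate 2, and up to 0.319 without another library).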

Other observations

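*Per1* is also a clock gene and a target of glucocorticoids, so other genes of both kinds were looked up, a choice made after the values of *Per1* were seen. The clock genes *Per2*, *Per3*, *Cry1*, *Nr1d1*, *Nr1d2*, *Dbp*, *Arntl* and *Clock* had log2 fold changes of -0.63 to 0.33 in homozygous against wild-type T cells. By edgeR's quasi-likelihood test 0 of the 8 were called in any of the 3 comparisons of genotypes. Over all tested genes 5.65% were called in homozygous and 1.78% in heterozygous against wild-type, and 1.49% between the mutant genotypes. *Per2*, the closest relative of *Per1*, had 170 and 194 normalized counts in wild-type, 160 and 117 in heterozygous and 104 and 133 in homozygous libraries (-0.63 ± 0.21, FDR 0.117), a sign opposite to that of *Per1*. Of the glucocorticoid-induced genes, *Fkbp5*, *Tsc22d3* and *Klf9* had positive log2 fold changes in homozygous against wild-type T cells, and *Sgk1* a negative one. *Fkbp5*, a cochaperone of the glucocorticoid receptor, had 1214 and 931 counts in wild-type, 855 and 974 in heterozygous and 1398 and 1771 in homozygous libraries, and rose in homozygous against wild-type (0.57 ± 0.15, FDR 0.0476) and against heterozygous T cells (0.79 ± 0.15, FDR 0.0218). *Tsc22d3*, which encodes GILZ, had 9685 and 8095, then 6226 and 7754, then 9350 and 12355 counts. Its log2 fold change in homozygous T cells was 0.29 ± 0.15 against wild-type (FDR 0.355) and 0.63 ± 0.15 against heterozygous (FDR 0.0712). *Sgk1*, a kinase gene, had 2462 and 2515, then 1849 and 1771, then 1721 and 1707 counts, and fell in both mutant genotypes (-0.54 ± 0.09, FDR 0.00456 in homozygous, and -0.46 ± 0.09, FDR 0.0270 in heterozygous). *Klf9* stood at 0.79 ± 0.38 (FDR 0.296). No explanation of these values was tested.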
